A study of Mus musculus with 10 samples.

Results

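Phase II conjugation enzymes join a small polar group to drugs, hormones, bile acids or lipids, which makes them easier to export. The genes described here are all those on the array whose symbols begin with Gsta, Gstk, Gstm, Gsto, Gstp, Gstt, Gstz, Ugt or Sult followed by a digit, taken from probe sets with exactly 1 gene symbol. The rule gave 50 of the 22180 genes measured, namely 18 glutathione transferases, 11 UDP-glycosyltransferases and 21 sulfotransferases. Another 14 symbols that fit the rule, among them Gsta1, Gsta2, Gstz1 and the Ugt1a genes, occur only on probe sets that name several genes and are not counted as members.

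The samples are portal tracts, the zones of the liver that hold a bile duct, a branch of the portal vein and a branch of the hepatic artery. They were cut by laser from frozen liver of 1-week-old mice, and each replicate pools 12 to 20 tracts. The 5 control samples are labelled as strain C57Bl/6J, and the other 5 samples are labelled Jag1+/-Rfng+/-, heterozygous both for the Notch ligand gene Jag1 and for Rfng, whose product is a glycosyltransferase acting on Notch, with no strain or allele type given. Since the labels do not tie samples to individual mice, p-values here reflect spread among the arrays as deposited, part of which may be technical.

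Glutathione transferases attach the tripeptide glutathione to reactive compounds. UDP-glycosyltransferases attach a sugar from a UDP-sugar donor, glucuronic acid in the case of the UGT2 enzymes, and cytosolic sulfotransferases attach sulfate from the donor PAPS. Hepatocytes are the main site of all 3 reactions in the liver, although bile duct cells and other cells carry some of the enzymes.

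All values are log2 expression values, 1 per gene and array, and a difference is always the Jag1+/-Rfng+/- mean minus the control mean. Y-linked genes on arrays with high Xist, and Xist on arrays where it is low, gave 1.82 to 2.91, which is taken here as the range of absent genes. Array medians lay between 3.22 and 3.30. Jag1+/-Rfng+/- replicate 5, whose sample name carries the suffix excl, correlated with the other arrays at 0.956 to 0.963, against at least 0.969 among the other 9. Rfng differed by -0.46 (exact permutation p = 0.00794) and Jag1 by -1.33 (exact permutation p = 0.0556), both two-sided. Hepatocytes were part of the captured tissue in every sample: the 27 measured hepatocyte markers averaged 10.03 to 10.27 in controls and 10.06 to 10.18 in Jag1+/-Rfng+/-. Duct and portal fibroblast markers were present too, with 14 of 16 cholangiocyte and 16 of 16 portal fibroblast markers averaging above 2.91 over the arrays. In such bulk samples fewer cells of a type and less RNA per cell cannot be told apart.

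No conjugation enzyme gene passed an adjusted p of 0.05 in limma, where 2 of all genes did (0.00902%). At an unadjusted p under 0.05, 6 of the 50 genes (12.0%) differed, against 6.76% of all genes. Of these, 4 were higher in Jag1+/-Rfng+/- (Gstm1, Gstm3, Gstt2 and Sult2a1), where 2.98% of all genes were higher, and 2 were lower (Ugt8a and Sult2a8), where 3.79% were lower. The 5 control values lay entirely apart from the 5 Jag1+/-Rfng+/- values for 3 members. Gstm1 and Gstt2 were on the higher side, as were 0.618% of all genes, and Ugt8a was on the lower side, as were 0.766%.

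**Figure D1:**
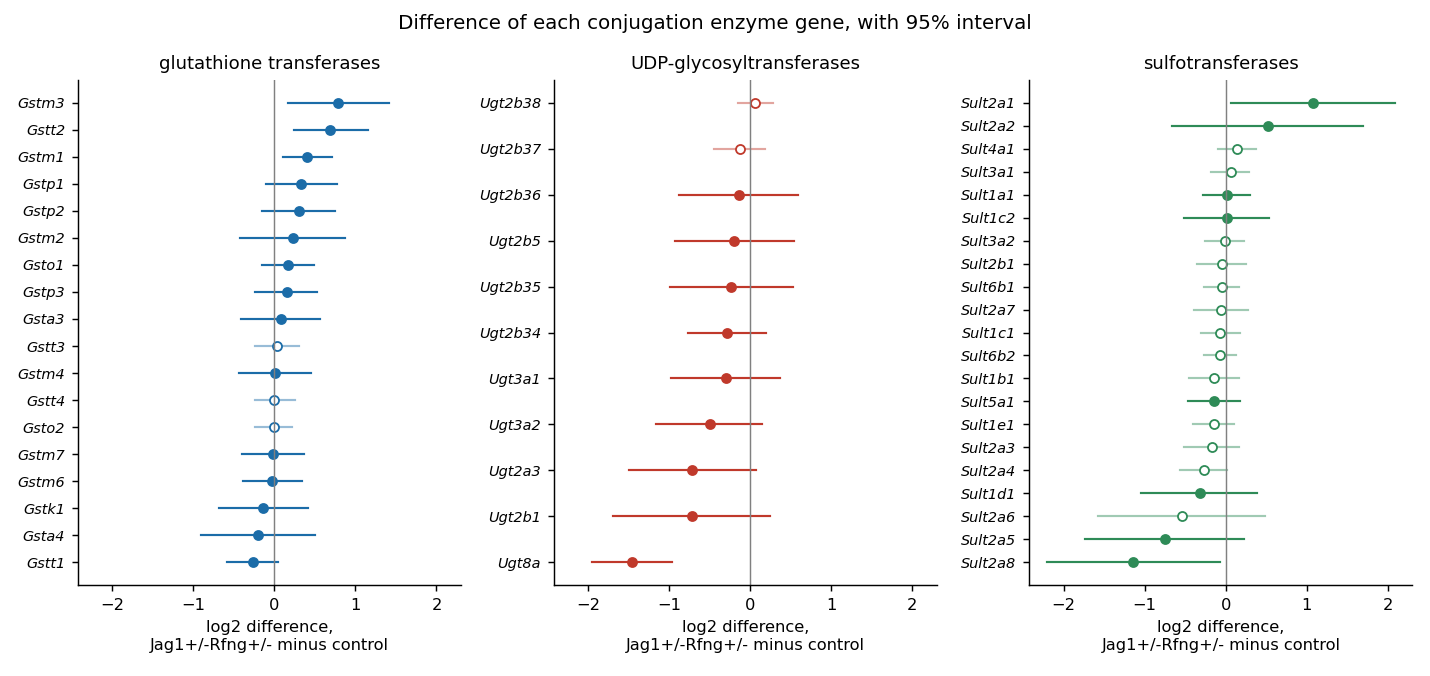
Each point is the log2 difference of 1 gene (horizontal axis, Jag1+/-Rfng+/- minus control, n = 5 arrays each) with its 95% interval from limma, in 3 panels for the 3 enzyme families. Open points mark the 18 genes whose mean over the arrays is at or under 2.91. The differences run from -1.46 (Ugt8a) to 1.08 (Sult2a1).

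The 3 families differed in how many members were above the level of absent genes and in the side to which their members lay. Among glutathione transferases, 15 of 18 averaged above 2.91 over the 10 arrays, and 10 of those 15 were higher in Jag1+/-Rfng+/-. Among UDP-glycosyltransferases it was 9 of 11, and 9 of those 9 were lower. Among sulfotransferases only 8 of 21 were above that level, 4 higher and 4 lower. Of all genes 62.8% were above it, with 7585 of those lower and 6354 higher. Counted over whole families, 12 of 18 glutathione transferases were higher, 10 of 11 UDP-glycosyltransferases lower and 15 of 21 sulfotransferases lower, and the medians were 0.05, -0.28 and -0.07, beside -0.01 for all genes. Median centring of the arrays put 9 rather than 10 of the 15 glutathione transferases higher and 6 of the 8 sulfotransferases lower, while the count of 9 for the UDP-glycosyltransferases did not change under quantile, median or cyclic loess scaling. It was 7 of 9 without Jag1+/-Rfng+/- replicate 5 and with array weights (medians -0.15 and -0.13), and 8 of 9 without control replicate 4 or 5 (medians -0.14 and -0.25). The sample names carry 4 different numbers of unstated meaning, and on the 7 arrays with the only number found in both groups (controls 2 to 4, Jag1+/-Rfng+/- 2 to 5) it was 7 of 9 (median -0.24). When Jag1+/-Rfng+/- replicate 5 was also left out of those, 5 were lower and 4 higher (median -0.04), so the lean to one side was lost. Whether the families differ from each other was not tested.

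Ugt8a was the member with the largest difference. It encodes the ceramide galactosyltransferase that makes galactosylceramide, a lipid of myelin and some epithelia, so it shares the fold and the donor type of the family but not the glucuronic acid reaction of the UGT2 enzymes. In controls it read 4.96, 4.59, 5.18, 5.13 and 4.42 on replicates 1 to 5, and in Jag1+/-Rfng+/- it read 2.70, 4.00, 3.59, 3.45 and 3.25. Every control array was higher than every Jag1+/-Rfng+/- array, and Jag1+/-Rfng+/- replicate 1 was low enough to lie in the range of absent genes. The means were 4.86 ± 0.34 and 3.40 ± 0.48 (SD, n = 5 each, exact permutation p = 0.00794, the smallest that 5 against 5 arrays can give). The difference was -1.46 ± 0.23 (SE), 2.75-fold lower (limma adjusted p = 0.0745), with a 95% interval of -1.95 to -0.96. It crossed the adjusted threshold without Jag1+/-Rfng+/- replicate 2 (-1.61, limma adjusted p = 0.0493), with a trended, robust variance prior and when only genes over the median level were tested (-1.46 and limma adjusted p = 0.0406 in both), and over all 25 alternatives it ranged from -1.61 to -1.19 with an adjusted p of 0.0406 to 0.438.

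Markers of ducts and of portal fibroblasts lay on the same side as Ugt8a. The portal fibroblast list averaged 6.14 to 7.23 on control arrays and 5.28 to 6.70 on Jag1+/-Rfng+/- arrays, with 14 of 16 markers lower and 9 at an unadjusted p under 0.05, all lower. The cholangiocyte list averaged 5.63 to 6.27 and 5.36 to 5.81, with 11 of 16 markers lower, 7 lower and 2 higher at that p, and Cftr and Sctr averaging within the absent range. Relative to its control mean the fibroblast list stood at 0.02, 0.26, 0.49, -0.60 and -0.16 on control replicates 1 to 5 and at -1.30, -0.41, -0.78, -0.05 and -1.46 on the Jag1+/-Rfng+/- replicates. In the same order the cholangiocyte list stood at 0.08, 0.08, 0.35, -0.21 and -0.30 and at -0.57, -0.12, -0.34, -0.16 and -0.54. Control replicate 3 was highest for both lists and gave the highest Ugt8a value. Jag1+/-Rfng+/- replicate 1, with the lowest Ugt8a value, was lowest for the cholangiocyte list and near lowest for the fibroblast list. Several arrays departed from the order of the fibroblast list. Replicate 4 of each group had Ugt8a at 5.13 and 3.45. Control replicate 2, at 0.26 for that list, had Ugt8a at 4.59, and Jag1+/-Rfng+/- replicate 5, lowest for it at -1.46, had 3.25. Arrays departed from the order of the cholangiocyte list too. Jag1+/-Rfng+/- replicates 2 and 4, at -0.12 and -0.16, lay above control replicates 4 and 5, at -0.21 and -0.30. Ugt8a read 4.00 and 3.45 on the former and 5.13 and 4.42 on the latter. With the fibroblast mean of each array as a covariate the Ugt8a difference was -1.19 ± 0.28 (SE, limma adjusted p = 0.438), and with the hepatocyte mean it was -1.44 ± 0.23 (limma adjusted p = 0.0679). The cholangiocyte list was not used as a covariate. Beyond the covariates given, the part of duct and fibroblast cells in the difference was not tested. The 7 arrays of the shared number gave -1.40 (limma adjusted p = 0.252).

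**Figure D2:**
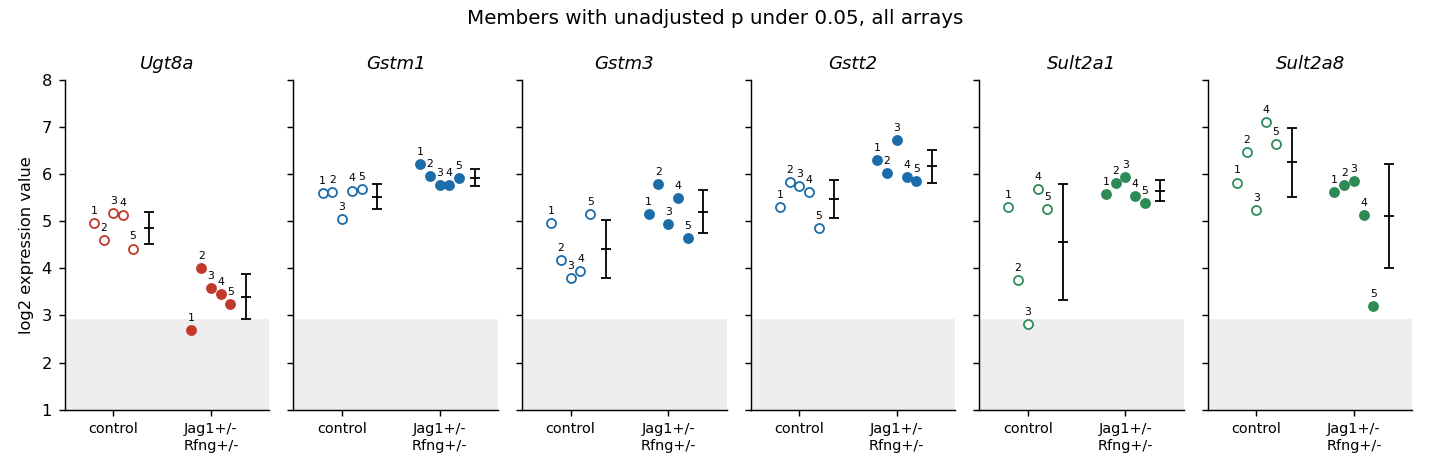
Log2 expression values (vertical axis) of the 6 members with an unadjusted p under 0.05, on the 5 control arrays (open points) and the 5 Jag1+/-Rfng+/- arrays (filled points), labelled by replicate number. Bars give the mean and SD, and the grey band ends at 2.91, the level an absent gene can reach. The groups lie apart for Ugt8a, Gstm1 and Gstt2.

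The UGT2B enzymes, which glucuronidate steroids, bile acids and many drugs, varied more among control arrays than between the group means. Ugt2b5 read 9.33, 8.14, 8.31, 9.38 and 9.15 in controls and 8.75, 9.10, 9.17, 8.81 and 7.51 in Jag1+/-Rfng+/-, with group means of 8.86 ± 0.59 and 8.67 ± 0.67 (SD, n = 5 each, exact permutation p = 0.659). Control replicates 2 and 3 and Jag1+/-Rfng+/- replicate 5 were low, and the other 7 arrays lay between 8.75 and 9.38. For all 5 Ugt2b genes above 2.91 (Ugt2b1, Ugt2b5, Ugt2b34, Ugt2b35 and Ugt2b36) control replicates 2 and 3 were the 2 lowest controls and Jag1+/-Rfng+/- replicate 5 was the lowest array of its group. These genes are close copies on chromosome 5, so their probe sets may partly read each other's transcripts. Ugt2b1 differed by -0.72 ± 0.44 (SE, limma adjusted p = 0.798), with an array range of 6.84 to 8.72 in controls and 5.61 to 7.78 in Jag1+/-Rfng+/-. Ugt2b34 and Ugt2b36 differed by -0.28 ± 0.22 and -0.14 ± 0.34, and Ugt2b35 by -0.23 ± 0.35, or by 0.04 without control 5. Without Jag1+/-Rfng+/- replicate 5 the differences of Ugt2b5 and Ugt2b36 turned to 0.09 and 0.12 and those of Ugt2b1 and Ugt2b34 were -0.35 and -0.14, and when the 7 arrays of the shared number were reduced to 6 by leaving that replicate out, 4 of the 5 genes were higher, with a median of 0.11.

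The promoters of 3 Ugt2b genes are shown because they share a long identical run while only Ugt2b5 was detected. Ugt2b5 read at least 7.51 on every array, while Ugt2b37 (1.51 to 2.34) and Ugt2b38 (1.47 to 1.83) stayed within the range of absent genes or below it on all 10. The 130 bases before each annotated start, from RefSeq (GRCm38.p6, minus strand), share the run of 62 bases in capitals, which no other promoter in the table holds. The intervals are chr5:87140341-87140470 for Ugt2b5, chr5:87254789-87254918 for Ugt2b37 and chr5:87424204-87424333 for Ugt2b38.
Ugt2b5: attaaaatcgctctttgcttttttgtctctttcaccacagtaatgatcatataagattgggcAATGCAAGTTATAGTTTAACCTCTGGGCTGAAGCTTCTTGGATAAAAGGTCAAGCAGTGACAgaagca
Ugt2b37: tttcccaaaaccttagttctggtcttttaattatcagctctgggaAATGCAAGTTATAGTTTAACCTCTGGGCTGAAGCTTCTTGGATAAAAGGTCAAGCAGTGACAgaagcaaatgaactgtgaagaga
Ugt2b38: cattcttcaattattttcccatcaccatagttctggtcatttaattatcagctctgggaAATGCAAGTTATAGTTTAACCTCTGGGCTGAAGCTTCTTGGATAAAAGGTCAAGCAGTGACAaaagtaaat

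The promoter of Ugt8a is of another kind. Its 130 bases before the start (GRCm38.p6, minus strand, chr3:125938653-125938782) are 82.3% G or C, where the 90th percentile of all promoters in the table is 73.1% and the median 53.8%. It is printed in lower case throughout, since it holds none of the motifs searched.
Ugt8a: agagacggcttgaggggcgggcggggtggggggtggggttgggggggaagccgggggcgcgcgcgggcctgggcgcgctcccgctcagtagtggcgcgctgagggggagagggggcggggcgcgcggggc

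The other UDP-glycosyltransferases were Ugt2a3, Ugt3a1 and Ugt3a2. Ugt2a3, another glucuronidating enzyme, had means of 3.32 ± 0.87 in the control group and 2.60 ± 0.40 in the other (SD, n = 5 each, exact permutation p = 0.143), and 6 of its 10 values were in the absent range. With the hepatocyte mean as a covariate its difference was -0.57 ± 0.15 (SE, limma adjusted p = 0.302), and without control replicate 4, its highest array at 4.47, it was -0.43. The UGT3 enzymes use sugars other than glucuronic acid. Ugt3a2 read 7.28 to 8.23 in controls and 6.18 to 7.73 in Jag1+/-Rfng+/- and differed by -0.50 ± 0.30 (SE, limma adjusted p = 0.794), or by -0.24 without Jag1+/-Rfng+/- replicate 5, its lowest array. Ugt3a1 differed by -0.30 ± 0.31, or by -0.05 without control 4.

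Among glutathione transferases the mu class gene Gstm1 and the theta class gene Gstt2 were higher on all Jag1+/-Rfng+/- arrays than on any control array. Both classes conjugate small electrophiles such as epoxides and halogenated compounds. Gstm1 read 5.60, 5.61, 5.05, 5.65 and 5.69 in controls and 6.22, 5.96, 5.76, 5.77 and 5.92 in Jag1+/-Rfng+/-. The gap between the groups was narrow, 5.69 to 5.76, and control replicate 3 lay well under the other controls. The difference was 0.40 ± 0.14 (SE), 1.32-fold higher (limma adjusted p = 0.609; exact permutation p = 0.00794), and it was 0.19 with the portal fibroblast mean as a covariate (limma adjusted p = 0.837).

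Gstt2 read 5.31, 5.83, 5.74, 5.62 and 4.86 in controls and 6.29, 6.03, 6.72, 5.94 and 5.85 in Jag1+/-Rfng+/-. The highest control and the lowest Jag1+/-Rfng+/- array nearly met, and control replicate 5 was the lowest of all. The difference was 0.69 ± 0.21 (SE), 1.62-fold higher (limma adjusted p = 0.520; exact permutation p = 0.00794). Over the 7 arrays of the shared number it was 0.40 (limma adjusted p = 0.878). Its relative Gstt1 lay the other way, at 7.46 ± 0.14 on control arrays against 7.19 ± 0.30 (SD, n = 5 each, exact permutation p = 0.111). Its difference of -0.26 was -0.16 without Jag1+/-Rfng+/- replicate 5.

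Gstm3 also read higher, with overlap between the groups. Its values were 4.96, 4.17, 3.80, 3.95 and 5.15 in controls and 5.15, 5.79, 4.93, 5.49 and 4.65 in Jag1+/-Rfng+/-. Control replicates 1 and 5 reached the Jag1+/-Rfng+/- range, and the other 3 controls were below it. The difference was 0.79 ± 0.29 (SE), 1.73-fold higher (limma adjusted p = 0.618; exact permutation p = 0.0714), and 1.24 over the 7 arrays of the shared number, which leave out both of those controls (limma adjusted p = 0.698). Of the other mu class genes, Gstm2 differed by 0.23 ± 0.29, Gstm4 by 0.01 ± 0.20, Gstm6 by -0.03 ± 0.17 and Gstm7 by -0.02 ± 0.18. These genes lie side by side on chromosome 3 and are close copies, so their probe sets may partly read each other's transcripts.

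The pi class genes, which encode the glutathione transferase found in many epithelia, all lay higher in Jag1+/-Rfng+/- by less than the spread between arrays. Gstp1 read 10.17, 10.19, 10.40, 10.57 and 11.24 in controls and 11.12, 10.60, 11.06, 10.90 and 10.55 in Jag1+/-Rfng+/-. Control replicate 5 was the highest array, and the other 4 controls were at or under 10.57. The difference was 0.33 ± 0.20 (SE, limma adjusted p = 0.798), and without control replicate 5 it was 0.51 (limma adjusted p = 0.538). Gstp3 and Gstp2 differed by 0.15 ± 0.18 and 0.30 ± 0.21. The name Gstp2 is uncertain here, because its RefSeq gene is on chromosome 19 while all 20 neighbouring probe sets by number belong to chromosome 1 genes. All 3 pi class genes were higher under all 25 alternatives, and none passed the adjusted threshold in any. A further probe set names both Gstp1 and Gstp2, so probe sets of this class may partly read each other's transcripts. The 3 genes may therefore not be separate signals.

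The differences of the remaining glutathione transferases were within 0.20 of 0. Gsta3, an alpha class enzyme of hepatocytes, differed by 0.08 ± 0.22 (SE), Gsta4, which acts on lipid peroxidation products, by -0.20 ± 0.32, the mitochondrial and peroxisomal Gstk1 by -0.14 ± 0.25 and Gsto1, which has thioltransferase activity, by 0.17 ± 0.15. Gsto2, Gstt3 and Gstt4 averaged within the range of absent genes. The antioxidant response element core, TGACNNNGC on either strand, through which the factor NRF2 acts on many glutathione transferase genes, was sought in the RefSeq promoters around each annotated start. Only these letters and a short stretch around each start were searched, so elements farther away or in variant form were not sought. The core occurred in 2 of the 53 member promoters, which cover 43 members, and in 12.4% of all 32851 promoters. The holders were Gsta3 and Gstm7, both above the absent range on all 10 arrays, and the Gsta3 promoter is shown as an example (GRCm38.p6, plus strand, chr1:21240455-21240584, match in capitals).
Gsta3: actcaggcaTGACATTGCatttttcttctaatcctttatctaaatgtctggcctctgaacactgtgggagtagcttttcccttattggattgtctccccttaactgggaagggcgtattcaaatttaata

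**Figure D3:**
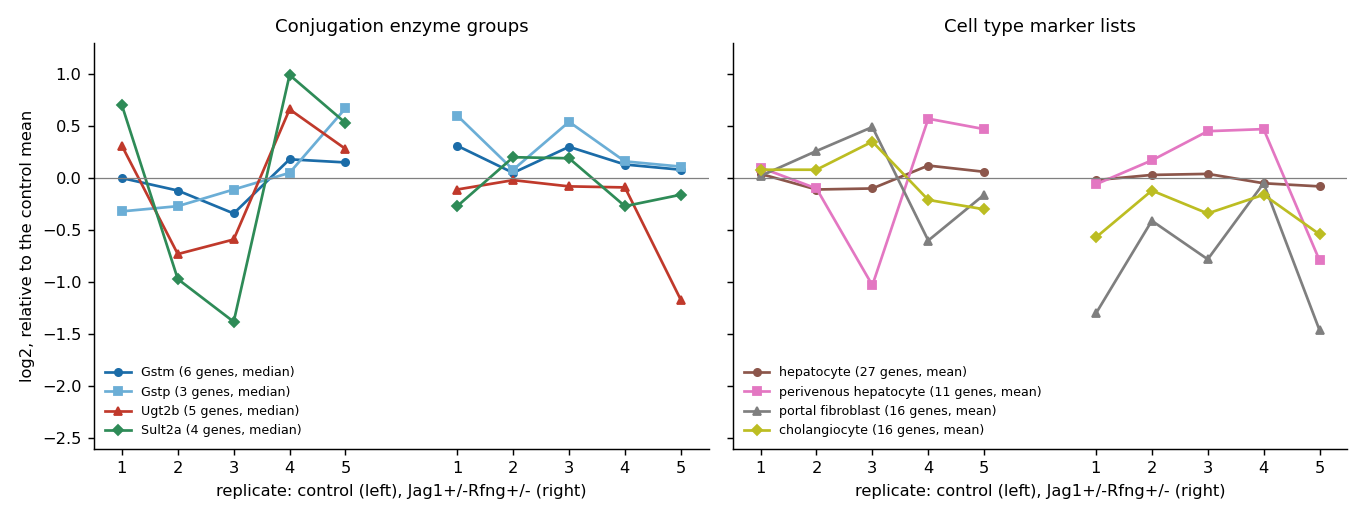
Left, the median of the Gstm, Gstp, Ugt2b and Sult2a genes that average above 2.91, on each array and relative to the control mean of each gene (log2). Right, the mean of 4 marker lists on the same scale; lines only join the arrays of a group, whose numbers have no order. Ugt2b and Sult2a lie lowest among controls on replicates 2 and 3, at -0.73 and -0.59 and at -0.97 and -1.38.

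The sulfotransferases with the widest spread were the Sult2a genes, whose products sulfate bile acids and steroids such as dehydroepiandrosterone. Sult2a1 read 5.30, 3.76, 2.81, 5.69 and 5.26 in controls and 5.58, 5.81, 5.93, 5.53 and 5.38 in Jag1+/-Rfng+/-. Control replicates 2 and 3 stood far below the other 8 arrays, which lay between 5.26 and 5.93. The means were 4.56 ± 1.23 and 5.65 ± 0.22 (SD, n = 5 each, exact permutation p = 0.0556), and the difference was 1.08 ± 0.46 (SE, limma adjusted p = 0.698). Leaving out control 3 gave 0.64 and leaving out control 2 gave 0.88, while the 7 arrays of the shared number, which include both, gave 1.57 (limma adjusted p = 0.848).

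Sult2a2 showed the same arrays low, at 7.22, 5.01, 5.02, 7.83 and 7.72 in controls against 6.68, 7.12, 7.35, 7.12 and 7.13 in Jag1+/-Rfng+/-. Its controls spanned 2.83 and its Jag1+/-Rfng+/- arrays 0.67, and the difference was 0.52 ± 0.54 (SE, limma adjusted p = 0.881). Leaving out control 2 or control 3 brought it to 0.13, and leaving out control 4 or control 5 to 0.83 and 0.81. Sult2a5 and Sult2a6 were also at 1.78 to 2.35 on control replicates 2 and 3 and at 3.33 to 4.99 on the other 3 controls. In Jag1+/-Rfng+/- they read 2.40 to 3.33 and 1.86 to 3.41, and their differences were -0.75 ± 0.45 and -0.54 ± 0.47. That of Sult2a5 was -0.38 without control 1, its highest array, and -0.11 over the 7 arrays of the shared number, and that of Sult2a6 was -0.18 without control 5 and 0.21 over those 7 arrays.

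Sult2a8, described as a bile acid sulfotransferase of mouse liver, lay on the other side. It read 5.82, 6.47, 5.24, 7.11 and 6.63 in controls and 5.61, 5.77, 5.85, 5.13 and 3.21 in Jag1+/-Rfng+/-. Replicate 5 of Jag1+/-Rfng+/- was far below all others, while controls 1 and 3 lay among the remaining Jag1+/-Rfng+/- values. The difference was -1.14 ± 0.49 (SE, limma adjusted p = 0.698; exact permutation p = 0.0635), and without that replicate it was -0.66 (limma adjusted p = 0.804). Over the 7 arrays of the shared number it was -1.28 (limma adjusted p = 0.878).

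**Figure D4:**
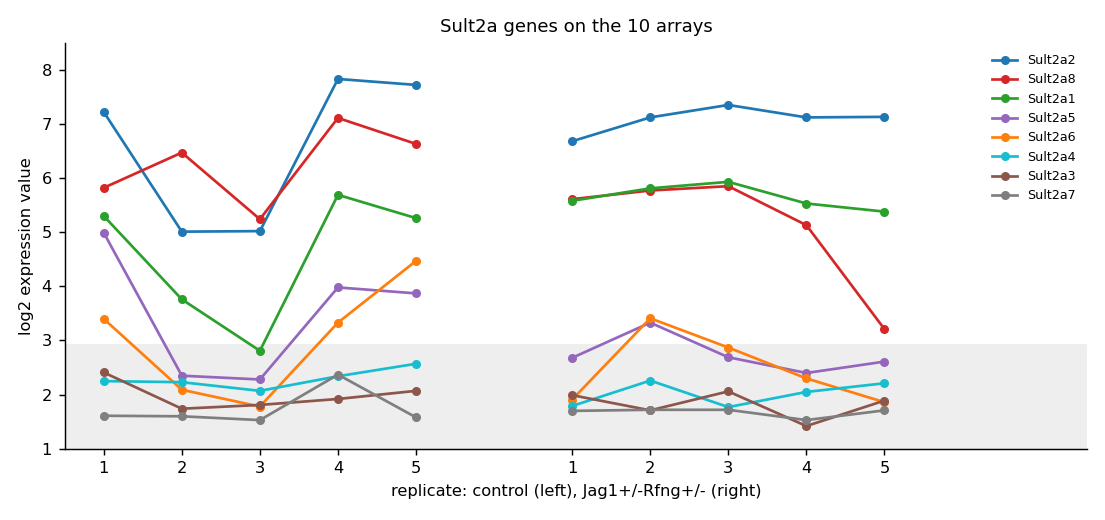
Log2 expression values (vertical axis) of the 8 Sult2a genes on each array (horizontal axis, replicate numbers, which have no order; lines join the values of 1 gene). The grey band ends at 2.91. Sult2a1, Sult2a2, Sult2a5 and Sult2a6 read lowest among controls on replicates 2 and 3, and Sult2a8 reads 3.21 on Jag1+/-Rfng+/- replicate 5.

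Hepatocyte and fibroblast markers differed on these arrays too. On control replicates 2 and 3 the hepatocyte list lay 0.11 and 0.10 below its control mean and the portal fibroblast list 0.26 and 0.49 above. On control replicate 4, the highest array for 14 of the 32 members above 2.91, the hepatocyte list lay 0.12 above and the fibroblast list 0.60 below. The perivenous hepatocyte list, genes of the zone around the central vein, ran from 1.03 below its control mean on control replicate 3 to 0.57 above on control replicate 4. On control replicate 2 it was only 0.10 below, and it was 0.79 below on Jag1+/-Rfng+/- replicate 5. That array, the lowest of its group for 17 of the 32 members, also had the erythroid list 2.72 above the control mean. With the hepatocyte mean as a covariate Sult2a1 differed by 1.27 ± 0.21 (SE, limma adjusted p = 0.0878), and with the portal fibroblast mean by 0.45 ± 0.57 (limma adjusted p = 0.895). With a sex score from Xist and Y-linked genes as a covariate, Sult2a1 differed by 1.08 and Sult2a8 by -1.14, as without it. The part of tissue composition in the sulfotransferase differences was not tested beyond these covariates.

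The Sult2a genes are neighbours on chromosome 7 and close copies, so signals of single genes among them are uncertain. Their promoters are shown because 4 of the 5 member promoters with the HNF1 motif, the site of a hepatocyte transcription factor, belong to this group. The motif GTTAATNAT on either strand occurred in 5 of the 53 member promoters and in 0.801% of all promoters. The fifth holder was Sult1d1, and the letters CAAAGTCCA of the HNF4 site occurred in 1 member promoter, that of Sult1b1 (0.475% of all). The 130 bases before the annotated starts, from RefSeq (GRCm38.p6), follow with the match in capitals, 51, 107, 28 and 71 bases before the starts of Sult2a3, Sult2a4, Sult2a5 and Sult2a6. They come from chr7:14123049-14123178, chr7:13989589-13989718 and chr7:14254871-14255000 on the minus strand for Sult2a3, Sult2a4 and Sult2a6, and from chr7:13623837-13623966 on the plus strand for Sult2a5.
Sult2a3: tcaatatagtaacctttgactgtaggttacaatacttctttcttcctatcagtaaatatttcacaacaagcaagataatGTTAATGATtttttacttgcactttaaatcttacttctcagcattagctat
Sult2a4: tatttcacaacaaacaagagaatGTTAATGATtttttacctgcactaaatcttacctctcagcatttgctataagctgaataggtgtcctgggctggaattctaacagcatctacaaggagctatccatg
Sult2a5: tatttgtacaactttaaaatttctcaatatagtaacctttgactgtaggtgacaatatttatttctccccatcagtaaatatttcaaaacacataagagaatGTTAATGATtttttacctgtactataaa
Sult2a6: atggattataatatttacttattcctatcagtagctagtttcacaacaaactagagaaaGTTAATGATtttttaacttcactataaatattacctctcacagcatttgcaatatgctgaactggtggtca

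Detection differed among the holders of the match. Sult2a3 and Sult2a4 stayed at or under 2.57 on all arrays, within the range of absent genes or below it, Sult2a5 and Sult2a6 read above that range on 4 arrays each, and Sult2a8, whose promoters hold no match, was above it on all 10. Sult2a1, Sult2a2 and Sult2a7 are without a promoter entry here, so their promoters were not searched. Sult2a7 stayed at or under 2.37, while Sult2a1 and Sult2a2 averaged 5.11 and 6.82 over the 10 arrays.

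The Sult1 genes varied less between the groups. Sult1a1, the main phenol sulfotransferase, read 8.60 to 8.76 in controls and 8.33 to 9.12 in Jag1+/-Rfng+/-. The difference was 0.01 ± 0.14 (SE) and a 95% interval of -0.28 to 0.30. Sult1d1, which sulfates catecholamines and other small phenols, differed by -0.32 ± 0.33, or by -0.10 without control 4 or without Jag1+/-Rfng+/- replicate 5, and Sult1c2 by 0.01 ± 0.24. Sult5a1 differed by -0.15 ± 0.15, from a control mean of 3.20. The estrogen sulfotransferase gene Sult1e1, Sult1b1, Sult1c1, Sult2b1, Sult3a1, Sult3a2, Sult4a1, Sult6b1 and Sult6b2 averaged within the range of absent genes or below it, so no level is given for them.

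The donors and partners of these enzymes were taken from 8 lists, in which no gene passed the adjusted threshold. Among all 22180 genes, 10766 were higher and 11414 lower. At an unadjusted p under 0.05 in limma, 2.98% of all genes were higher and 3.79% lower. In the list of sulfate donor supply and desulfation 12 of 14 genes lay lower, with a median of -0.20. Besides genes for PAPS synthases, PAPS carriers and sulfatases, it holds sulfate transporter genes and the sulfur metabolism genes Suox, Ethe1 and Tst. In that list 2 genes had an unadjusted p under 0.05, Papss1, a PAPS synthase (-0.67 ± 0.21, SE, limma adjusted p = 0.546), and the sulfatase gene Arsa (-0.21 ± 0.10, limma adjusted p = 0.737). In the list of glucuronic acid donor supply and glucuronide turnover 7 of 10 were lower, with a median of -0.05 and none at that p. The list is broad, since Gaa, Ces1g, Slc35b1 and Slc35a3 are not specific to glucuronic acid. Ugdh, whose product makes UDP-glucuronic acid, averaged 5.86 in both groups. The lowest p values belonged to the SLC35 family transporter genes Slc35b1 (-0.22 ± 0.17) and Slc35a3 (-0.29 ± 0.26). Glutathione supply and recycling had 11 of 19 genes higher and a median of 0.10, with 2 higher and 2 lower at that p. Of these, Gclc, the catalytic subunit of the rate-limiting ligase of glutathione synthesis, differed by -0.49 ± 0.18 and the peroxidase gene Gpx3 by 0.51 ± 0.18 (limma adjusted p = 0.618 for both).

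Other glutathione transferases and related proteins were evenly split, 6 and 6, with a median of 0.01. The chloride channel protein gene Clic4 was lower on all Jag1+/-Rfng+/- arrays than on any control array, as were 0.766% of all genes. Its difference was -0.35 ± 0.10 (SE, limma adjusted p = 0.508), and the microsomal Mgst2 differed by 0.37 ± 0.15. In the list of NRF2 targets and regulators 15 of 19 were higher, with a median of 0.10 and 3 higher against 1 lower at an unadjusted p under 0.05. Ephx1, the microsomal epoxide hydrolase gene, was the leading one (0.53 ± 0.14, limma adjusted p = 0.433). This list shares Gclc, Gclm, Txnrd1 and Slc7a11 with glutathione supply and recycling, and Gclc was lower. Methyl, acetyl and amino acid conjugation had 8 of 14 higher and a median of 0.04. Its gene at that p was Baat, which conjugates bile acids with taurine or glycine (0.97 ± 0.24, limma adjusted p = 0.356), and Nat1, next in rank, read within the range of absent genes or below it.

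Nuclear receptors and liver factors were split 8 and 8 with a median of -0.02, and Onecut1 (-0.48 ± 0.16) and Cebpb (0.41 ± 0.16) had the lowest p values. Like Clic4, Onecut1 was lower on all Jag1+/-Rfng+/- arrays than on any control array. Conjugate export and uptake had 8 of 15 higher and a median of 0.01, with 2 higher at an unadjusted p under 0.05. They were Abcc3, an exporter of glucuronides at the basolateral membrane (0.85 ± 0.18, limma adjusted p = 0.289), and Slco2a1, a prostaglandin transporter (0.39 ± 0.14, limma adjusted p = 0.618). Abcc3 was higher on all Jag1+/-Rfng+/- arrays than on any control array, as were 0.618% of all genes. Among the other marker lists, the median difference was 0.07 for endothelial, 0.13 for macrophage, -0.09 for smooth muscle, 0.01 for periportal hepatocyte, 0.05 for perivenous hepatocyte and -0.03 for hepatocyte genes, and 0.43 for the 4 erythroid genes measured.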

How the data were processed

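The authors deposited log2 expression values of 10 biotin-labelled arrays, for which RMA and Partek 6.6 are named, with no role stated, per the submitters' processing notes. No label names the genome build of the probe sets. Of 33649 probe sets, 23521 carry 1 gene symbol in the platform annotation, and each of the 50 members has 1 such probe set. All 50 matched RefSeq (GRCm38.p6) by Entrez identifier. Groups and replicate numbers came from sample titles.

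limma 3.58.1 in R 4.3.3 (lmFit, eBayes, two-sided) was run over all 22180 genes with Benjamini-Hochberg adjustment and checked on simulated data. Single genes were also compared by an exact permutation test over all 252 splits, two-sided. Genes were named by rule: in each family those past the adjusted threshold, those with an unadjusted p under 0.05 and at least 1.5-fold, a fill to 5 by lowest p and the 4 highest means, and 2 genes per pathway list. Other members were named to account for the whole set. No filter on low values was used. Alternatives left out each array, used a replicate block, array subsets, weights, other eBayes settings, 3 normalizations, 2 level filters, other probe set rules and 3 covariates. Members and lists were chosen with earlier results of these data known. Array data have no depth, and the number of arrays limits precision.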

Additional observations from a re-analysis of the deposited data

Results flagged for a closer look

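The 23 named members form 46 groups of 5 arrays. These groups share the same 10 arrays and some close-copy genes, so the 1 in 20 that chance gives for independent groups does not carry over. The share over all genes was not computed. In 7 of the 46 groups, 1 array lay farther from the others than the usual limit for such groups (Dixon's test). Jag1+/-Rfng+/- replicate 5 was that array for 5 genes: Ugt2b5 read 7.51 there against 8.75 to 9.17 on the other 4 arrays of its group, Ugt2b34 8.00 against 8.60 to 8.76, Ugt2b36 7.56 against 8.76 to 8.95, Gsta3 7.81 against 8.71 to 8.79, and Sult2a8 3.21 against 5.13 to 5.85. Gstp3 read 9.60 on Jag1+/-Rfng+/- replicate 1 against 10.19 to 10.43. Gstm1 read 5.05 on control replicate 3 against 5.60 to 5.69.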

How the results depend on the processing

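Under 25 alternatives the count of members at an unadjusted p under 0.05 was 4 to 9, against 6. The count past the adjusted threshold was 0, and 1 (Ugt8a) without Jag1+/-Rfng+/- replicate 2 (range 0 to 1 over left-out arrays), with trend and robust eBayes and among genes above the median level. The glutathione transferase median moved to 0.23 when only the 6 arrays of the shared number other than Jag1+/-Rfng+/- replicate 5 were used. There Ugt2b5, Ugt2b34, Ugt2b36 and Sult1a1 reversed to 0.41, 0.02, 0.29 and -0.04, and with replicate 5 kept Ugt2b5 to 0.04. Array weights reversed Ugt2b5, Ugt2b36 and Sult1a1 to 0.06, 0.09 and -0.02, and the fibroblast covariate Sult1a1 and Sult2a2 to -0.05 and -0.20. Over left-out arrays Sult1a1 ranged from -0.10 to 0.10, Gsta3 from -0.05 to 0.26, Ugt2b5 from -0.38 to 0.09 and Ugt2b36 from -0.40 to 0.12. The causes were not tested.

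With the replicate block Ugt8a differed by -1.46 (limma adjusted p = 0.242), and the count of members at an unadjusted p under 0.05 was 6. Same-numbered arrays deviated with correlations of -0.23 to 0.06 over all genes, so no pairing by number was seen. A correlation over all genes cannot exclude a pairing that touches few of them. Signal over background per probe was not at hand, so low members have only the range of absent genes as a limit.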

Other observations

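Probe sets that name several genes belong to no comparison above, and their values cover symbols left out by the rule. A probe set shared by Ugt1a1, Ugt1a5, Ugt1a6a, Ugt1a6b and Ugt1a7c, enzymes that glucuronidate bilirubin and phenols, averaged 8.39 in controls and 8.08 in Jag1+/-Rfng+/-, with control replicate 4 highest at 9.26 and Jag1+/-Rfng+/- replicate 5 lowest at 7.73. A probe set shared by 8 Ugt1a genes averaged 5.29 and 5.22, and the one shared by Ugt2a1 and Ugt2a2 averaged 1.93 in both groups. The probe set shared by Gstp1 and Gstp2 read 9.19 to 9.46 in controls and 9.38 to 10.03 in Jag1+/-Rfng+/-, with means of 9.33 and 9.68. Of 3 probe sets naming Gsta1 and Gsta2, 1 averaged 4.46 in controls and 4.79 in Jag1+/-Rfng+/-. It read 4.27 to 4.68 in controls and 4.69 to 4.95 in Jag1+/-Rfng+/-, so the groups lay apart by a very narrow gap. Among all genes with a probe set of 1 symbol, 0.618% lay apart on the higher side. Another of the 3 probe sets averaged 4.49 and 4.50, and the last 1.63 and 1.71. The probe set of Gstz1 and Pomt2 averaged 9.19 and 9.04, and that of Gstm5 and 4933431E20Rik 6.82 and 6.54. These values were not tested.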
